A study of Mus musculus with 18 samples.

Results

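A pair of primer mixtures for copying very small amounts of RNA were compared in mouse embryonic stem (ES) cell RNA: not-so-random primers with oligo(dT) (NSRdT, 3 libraries) against random hexamers with oligo(dT) (N6dT, 3 libraries). The 6 libraries were taken by their labelled reverse transcription primers from the 18 of the series, and all genes in the table were compared. The cells were of the 5G6GR line, which is known for an inducible Gata6 fusion. They were grown on gelatin without feeder cells, in fetal calf serum with leukemia inhibitory factor, puromycin and blasticidin. Purified total RNA was diluted to 10 pg for each of these 6 libraries, was copied by RT-RamDA, and was made into a library with a kit for single-stranded DNA and 17 cycles of PCR. The RNA, the amount and the kit were the same in both groups, and of the labelled conditions only the random part of the primer mixture differed. The library titles also end in a number that is the same within each group and differs between them. What it stands for is not given, and it cannot be told apart from the primers. Libraries with the same primers but no oligo(dT) (NSR and N6, 3 each) and 3 libraries of rRNA-depleted RNA from 200 ng (bulk) are used beside them. The labels do not say whether libraries with the same primers stem from different cultures, and the p-values therefore measure only the spread between libraries, which may be technical.

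RT-RamDA makes many cDNA copies from each RNA during reverse transcription, as nicked or newly primed strands are displaced and made again. Random hexamers can prime anywhere on any RNA, including ribosomal RNA (rRNA), which makes up most of the RNA of a cell. Not-so-random primers are hexamers from which those matching rRNA were left out, so that fewer rRNA copies are made. Oligo(dT) primes at poly(A) tails, which most mRNAs have and which rRNA, histone mRNAs of the replication-dependent kind and many small RNAs lack. With oligo(dT) in both mixtures, most mRNAs have a priming route that does not depend on the random primers.

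Some of the RNAs that the results turn on are short enough to show. The first sequences below are those of Rn7sk, which stood higher with NSRdT, and of Rpph1 and Rmrp, 2 other small RNAs made without poly(A), which did not pass the test. They are transcript sequences of GENCODE vM21, 5′ to 3′, with the first 300 bases of Rn7sk (331 bases long) and of Rpph1 (319). Capitals mark bases covered by a hexamer that occurs nowhere in the 18S, 12S and 16S rRNA loci or in Gm42418 and Gm26917, loci next to 18S that are described with the results. Of 4096 possible hexamers, 936 are absent from those 5 loci. The NSR primer sequences themselves were not used here, so the capitals describe the RNA and not the primers.
Rn7sk: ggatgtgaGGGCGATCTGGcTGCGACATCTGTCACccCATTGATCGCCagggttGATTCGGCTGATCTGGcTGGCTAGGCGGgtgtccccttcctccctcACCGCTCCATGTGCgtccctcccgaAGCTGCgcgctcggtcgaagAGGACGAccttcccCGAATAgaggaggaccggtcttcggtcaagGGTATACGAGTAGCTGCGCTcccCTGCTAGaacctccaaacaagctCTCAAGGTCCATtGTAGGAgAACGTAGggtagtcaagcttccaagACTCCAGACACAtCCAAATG
Rpph1: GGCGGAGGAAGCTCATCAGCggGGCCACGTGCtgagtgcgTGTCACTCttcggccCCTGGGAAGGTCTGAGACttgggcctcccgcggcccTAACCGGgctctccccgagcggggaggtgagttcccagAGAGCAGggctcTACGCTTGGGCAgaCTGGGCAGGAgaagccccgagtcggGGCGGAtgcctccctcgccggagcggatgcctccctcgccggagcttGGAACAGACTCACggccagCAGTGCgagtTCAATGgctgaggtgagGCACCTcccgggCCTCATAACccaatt
Rmrp: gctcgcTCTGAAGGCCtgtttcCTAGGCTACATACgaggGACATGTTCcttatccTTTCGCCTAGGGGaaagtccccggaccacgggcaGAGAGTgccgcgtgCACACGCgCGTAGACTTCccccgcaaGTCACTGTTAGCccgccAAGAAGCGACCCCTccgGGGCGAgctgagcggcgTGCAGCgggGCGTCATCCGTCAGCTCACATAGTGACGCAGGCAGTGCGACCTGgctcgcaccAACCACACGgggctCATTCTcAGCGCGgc
The last is a stretch of 18S rRNA, bases 606 to 665 of the reverse complement of the Rn18s-rs5 entry, shown because the same 60 bases open the Gm42418 transcript. It is all in lower case, since all of its hexamers occur in those loci by construction.
18S: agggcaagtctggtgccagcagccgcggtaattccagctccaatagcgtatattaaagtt

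Fewer of the counts came from rRNA with NSRdT. Loci annotated as nuclear or mitochondrial rRNA took 22.5%, 21.8% and 23.0% of the estimated counts in the NSRdT libraries and 28.2%, 27.0% and 28.0% in the N6dT libraries. All NSRdT libraries were below all N6dT libraries, at a mean of 22.4% ± 0.578 (SD, n = 3) against 27.7% ± 0.613. The exact permutation test, two-sided, gave p = 0.1, the smallest that 3 against 3 libraries allow, and 0.108 after Benjamini-Hochberg adjustment over 53 measures of the libraries. The same p holds for each share, histone family sum, detected-gene count and bulk correlation below whose groups do not overlap. The adjusted value holds for those among the 53. Variants of a measure, such as those with rRNA-like loci added or removed or with mitochondrial mRNAs alone, were not adjusted. Sums over gene lists were not tested. Without oligo(dT) the share was 28.1% with NSR and 30.9% with N6.

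The nuclear and mitochondrial parts of that share went opposite ways. Nuclear rRNA loci took 10.4% ± 0.471 of counts with NSRdT and 16.96% ± 0.991 with N6dT. Mitochondrial rRNA, the 12S and 16S RNAs of the mitochondrial ribosome, took 12.0% ± 0.492 against 10.8% ± 0.456. All mitochondrially encoded genes together took 15.05% ± 0.474 against 13.1% ± 0.551, and their mRNAs alone 3.01% against 2.27%. In each of these the groups did not overlap. Shares add to a fixed sum, so a fall in one class raises the others.

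Loci that are not annotated as rRNA but are grouped with it here also held large shares. Gm42418 and Gm26917 are annotated as lincRNAs but lie beside Rn18s-rs5 on chromosome 17, and the loci of Rn18s-rs5, Gm42418 and Gm26917 summed to 24.2%, 23.3% and 23.7% of counts with NSRdT and 39.3%, 36.8% and 37.9% with N6dT. With Gm42418, Gm26917 and 5 further rRNA-like loci (Lars2, Mir6236, AA474408, Gm15662 and Gm15564) added to the annotated ones, the sum was 44.9% ± 0.677 of counts with NSRdT and 60.4% ± 1.21 with N6dT. The 7 loci were added after their values were known. Against Rn18s-rs5, shared 31-base words were found for Gm42418, none were found for Gm26917, AA474408 and Mir6236, and Lars2, Gm15662 and Gm15564 were not tested.

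**Figure D1:**
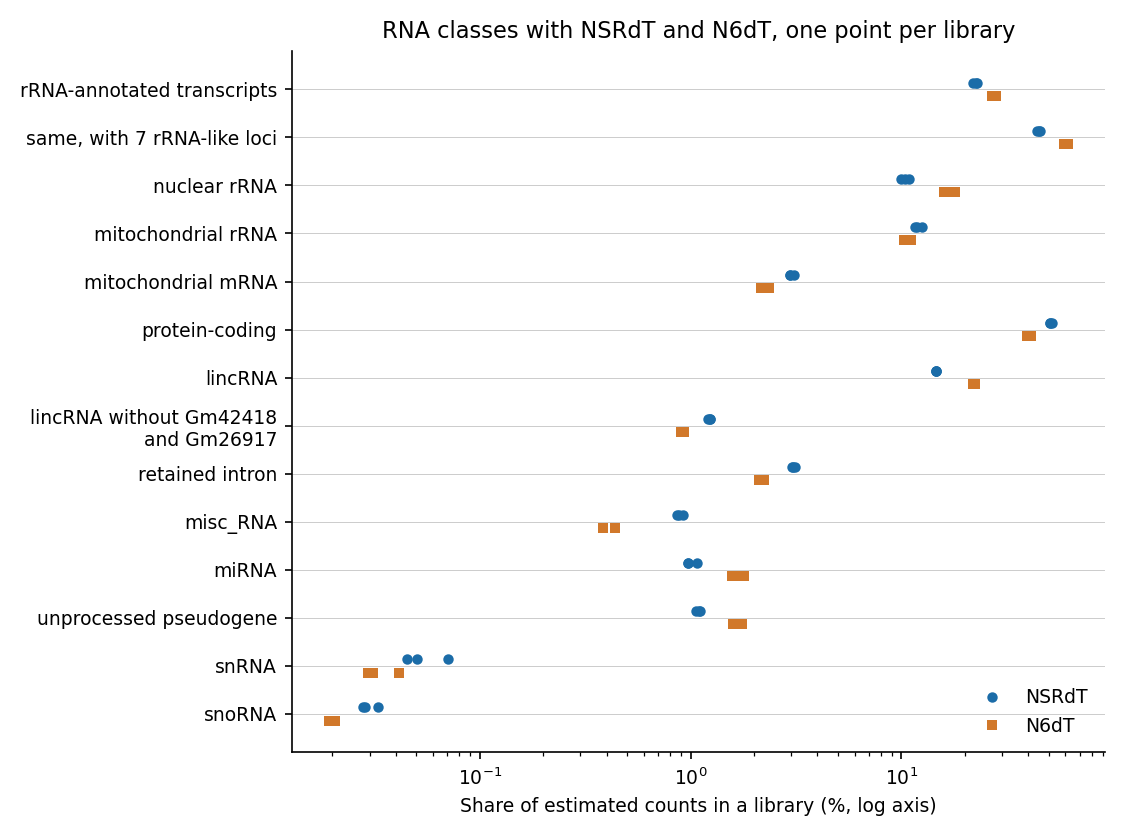
Shares of estimated counts (percent, log axis, horizontal) taken by classes of RNA (vertical axis) in the NSRdT and N6dT libraries, with 1 point for each library. rRNA-annotated loci lie at 22.4% against 27.7% and protein-coding transcripts at 51.1% against 40.2%, and in none of the classes drawn do the groups overlap.

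Of 21 transcript classes with enough counts to compare, 17 took a larger share with NSRdT, 4 took a smaller one, and the groups did not overlap in any of them. Protein-coding transcripts took 51.0%, 51.6% and 50.8% with NSRdT and 39.2%, 41.1% and 40.2% with N6dT. Retained-intron transcripts, which keep intron sequence, took 3.07% against 2.159%. misc_RNA, the class that holds 7SK and the signal recognition particle RNAs, took 0.888% ± 0.0298 against 0.402% ± 0.0308. The smaller shares were those of nuclear rRNA, of lincRNA (14.6% against 21.98%), of miRNA loci (1.00% against 1.66%) and of unprocessed pseudogenes (1.09% against 1.68%).

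Those shares depended on a few loci. After rRNA-annotated and mitochondrial genes were removed (391 genes), protein-coding transcripts still took 64.6% ± 0.122 with NSRdT and 54.1% ± 0.825 with N6dT, and 15 of 18 classes did not overlap. The 7 rRNA-like loci were chosen after their values were known and most stood lower with NSRdT, so removing them was bound to narrow gaps. After they were removed as well, protein-coding transcripts took 78.0% against 78.4% and overlapped, and 6 of the 18 classes stood apart. Among these 6, misc_RNA (1.71% against 1.08%), retained introns (5.90% against 5.79%) and transcribed processed pseudogenes (0.0847% against 0.0755%) were higher with NSRdT. TEC loci, which still await experimental evidence (2.12% against 2.19%),, lincRNA (2.36% against 2.47%) and miRNA loci (0.495% against 0.645%) were lower. misc_RNA therefore had the widest relative gap of the 6 that remained.

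Single genes were compared on CPM, here the counts relative to a library size scaled by the trimmed mean of M-values, which aligns the bulk of genes between libraries. Log2 fold changes are NSRdT over N6dT with their standard errors (SE), and adjusted p is that of edgeR's quasi-likelihood test with Benjamini-Hochberg adjustment over all tested genes, called under 0.05. Of 14932 genes tested 18 were called, or 0.121%, with 6 higher (0.0402%) and 12 lower (0.0804%). An unadjusted p under 0.05 was reached by 658 genes (4.41%), and DESeq2 called 57. The scaling set the split: by library totals alone 118 genes were called, 109 higher and 9 lower, and the median of all genes moved from 0.00 to 0.47. The spike-in RNAs, which were scaled with the genes but not used to set the scale, differed by -0.02 on the log2 scale. The 18 called genes fall into rRNA and rRNA-like loci, small RNAs, histones, and 4 mRNAs or gene segments read in only 1 group or nearly so.

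**Figure D2:**
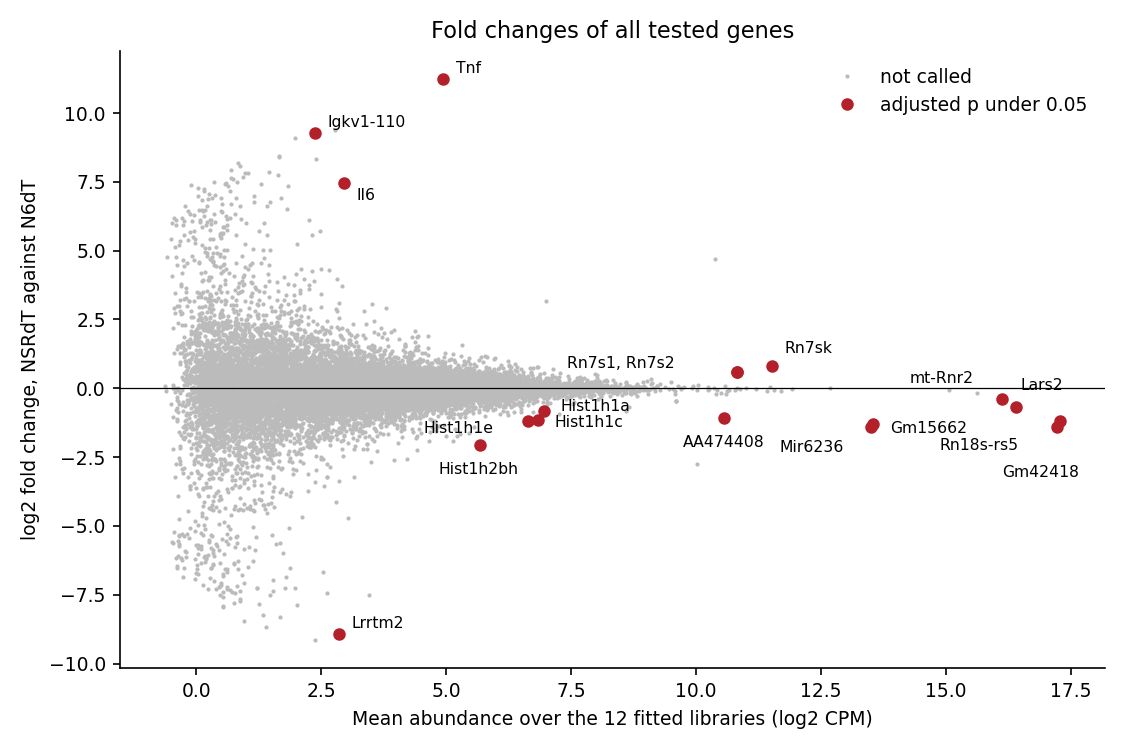
Log2 fold change of NSRdT over N6dT (vertical axis) against mean log2 CPM (horizontal axis) for every tested gene, with the called genes marked. The 18 called genes lie outside a cloud whose middle lies at 0.00 and whose quartiles lie at -0.39 and 0.40.

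Of the 12 lower genes, 7 are annotated rRNA loci or loci grouped with rRNA here as rRNA-like. Rn18s-rs5, annotated as an 18S rRNA locus (mm10 chromosome 17, 39846353 to 39848827, minus strand), stood at 85330, 76326 and 82609 CPM in NSRdT 1, 2 and 3 and at 199726, 165967 and 185783 CPM in N6dT 1, 2 and 3. Every N6dT library was above every NSRdT library, with a log2 fold change of -1.17 ± 0.06 (SE) and an adjusted p of 4.56e-07. Gm42418 overlaps it on the plus strand (39846958 to 39848788), and 1214 of its 1801 distinct 31-base words occur in Rn18s-rs5 read from the opposite strand. Because the strand of counting is not given, reads of these 2 loci cannot be told apart. Gm42418 stood at 74417, 73104 and 76078 CPM against 206915, 186891 and 196946, a log2 fold change of -1.40 ± 0.04 (adjusted p = 5.54e-11). Its neighbour Gm26917 was not called, at 30173, 29242 and 29808 CPM against 31986, 30644 and 30933, a difference of -0.07 that became 0.40 by library totals alone. So adjoining loci did not lose counts to the same extent.

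The other rRNA-like loci fell by different amounts. Mir6236, a miRNA annotation, stood at 6075, 5553 and 5903 CPM against 17011, 14021 and 15054 (-1.39 ± 0.07, adjusted p = 3.81e-07). Gm15662 stood at -1.31 ± 0.12 (adjusted p = 8.09e-05) and AA474408 at -1.08 ± 0.07 (adjusted p = 2.39e-06). Lars2, which encodes the mitochondrial leucyl-tRNA synthetase, stood at 58333, 56315 and 59950 CPM against 96528, 86336 and 93599 (-0.66 ± 0.04, adjusted p = 8.98e-07). The groups did not overlap at any of these 4 loci.

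Mitochondrial rRNA had the smallest fold change of the 18 called genes. mt-Rnr2, the 16S rRNA, stood at 51588, 51445 and 56552 CPM with NSRdT and at 68960, 69527 and 72073 with N6dT. That is a log2 fold change of -0.40 ± 0.03 (adjusted p = 1.97e-05), which became 0.07 and was not called by library totals alone. mt-Rnr1, the 12S rRNA, stood at 39577, 39681 and 43462 against 45400, 46061 and 47865 CPM, and did not pass the test (-0.18 ± 0.03, adjusted p = 0.0851). None of the 13 mitochondrial mRNAs was called (edgeR quasi-likelihood test), against 0.121% of all tested genes. Their median was -0.05, and mt-Co1, a subunit of cytochrome c oxidase, stood at 0.01. Of these mRNAs 5 were lower in every NSRdT library than in every N6dT library, against 5.03% of all tested genes.

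**Figure D3:**
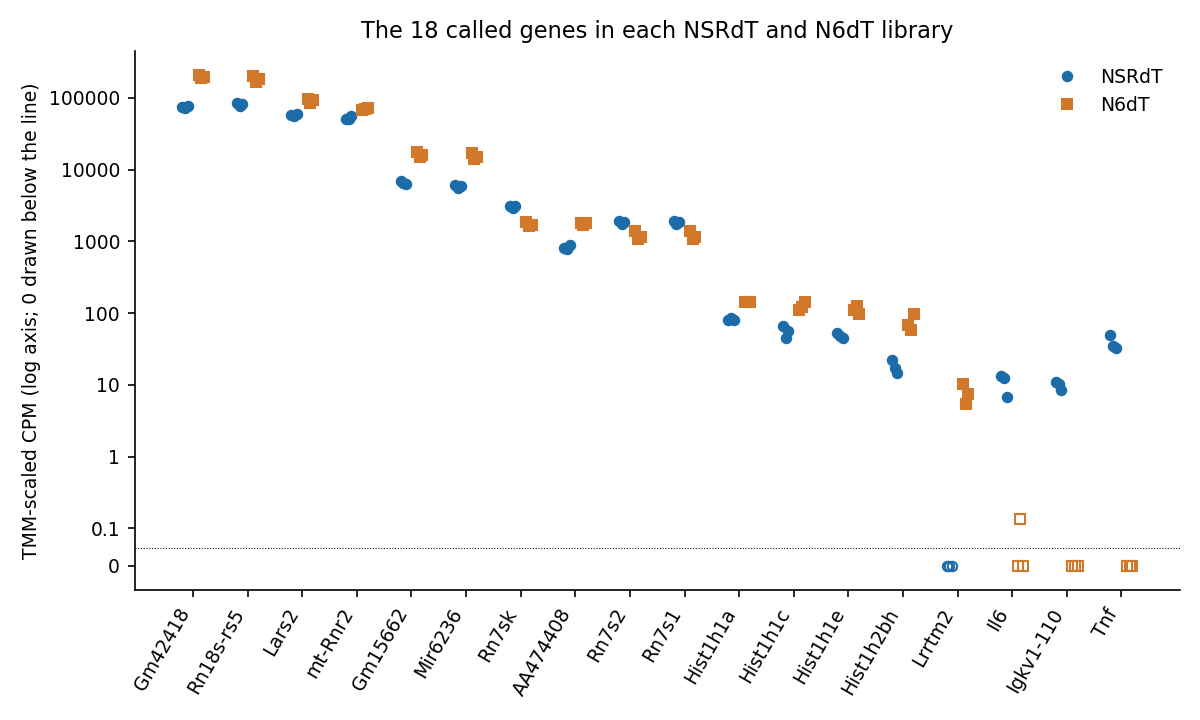
CPM (vertical log axis, with 0 drawn below the dotted line) of the 18 called genes in each NSRdT and N6dT library, with 1 point for each library. No called gene has overlapping groups, and Rn7sk, Rn7s1 and Rn7s2 are the called genes above 1000 CPM that are higher with NSRdT.

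Small RNAs supplied 3 of the 6 higher genes. Rn7sk, the 7SK RNA that holds the elongation factor P-TEFb inactive (chromosome 9, 78175303 to 78175633, minus strand), stood at 3161, 2929 and 3120 CPM with NSRdT and at 1889, 1663 and 1699 CPM with N6dT. All NSRdT libraries were above all N6dT libraries, 1.75-fold on average in the fit, or 0.81 ± 0.08 (SE) on the log2 scale (adjusted p = 0.000215). Rn7s1 and Rn7s2 are copies of 7SL, the RNA of the signal recognition particle. Their sequences are identical and so are their values, so they count as 1 RNA and 5 distinct sequences were higher. Summed, the pair stood at 3872, 3525 and 3688 CPM with NSRdT and at 2822, 2154 and 2338 CPM with N6dT, and each stood at 0.60 ± 0.09 (adjusted p = 0.0108). Their call was lost when either of 2 NSRdT libraries (1 or 3) or either of 2 N6dT libraries (2 or 3) was left out, with adjusted p from 0.0518 to 0.0791 and a log2 fold change from 0.52 to 0.60.

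Other small RNAs of the same kind were not called. Rpph1, the RNA of RNase P, which trims tRNA precursors, stood at 228, 176 and 202 CPM with NSRdT and at 414, 338 and 317 with N6dT. Its groups did not overlap, but it was not called (-0.82 ± 0.16, adjusted p = 0.0981). Rmrp, the RNA of RNase MRP, which cuts rRNA precursors, stood at 509, 429 and 452 CPM against 405, 332 and 369. Its NSRdT libraries were all above its N6dT libraries, and it was not called (0.33 ± 0.14, adjusted p = 1). Of 21 tested small RNAs without poly(A) 3 were called, all higher (14.3% against 0.121% of all genes), with Rn7s1 and Rn7s2 counted singly. The median of the 21 was -0.06 against 0.00 for all genes. In 5 (23.8%) every NSRdT library was above every N6dT library, against 5.00% of all genes. The reverse held in 3 (14.3%), against 5.03% of all genes. None of 70 snoRNA and scaRNA genes, whose RNAs guide chemical modification of other RNAs, and none of 34 snRNA loci of the spliceosome was called by edgeR. Their medians were 0.06 and 0.08, and with 0.121% of all genes called, no call is the likely outcome for groups of this size.

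Shares of hexamers absent from those 5 loci are set beside the values here, and whether they bear on priming was not tested. Such hexamers began at 19.3% of positions in Rn7sk and 15.9% in Rn7s1, both called higher. They began at 20.3% in Rmrp and 12.7% in Rpph1, neither of them called. The median over 12461 tested genes with a sequence was 20.3%, so none of these RNAs exceeded it. Among called mRNAs described below, the share was 25.5% in Il6 and 19.7% in Tnf, both higher, and 16.5% in Hist1h1c, which was lower. Across 9780 protein-coding genes with a sequence, the same share had a rank correlation of 0.02 with the log2 fold change, GC content -0.02, and transcript length over 12128 genes 0.03. These are descriptions across genes, which are not independent of each other. By length, the median log2 fold change was -0.13 for 172 genes under 500 bases, -0.05 for 833 genes of 500 to 1000 bases and within 0.03 of 0 in each longer class.

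Replication-dependent histone mRNAs, which end in a stem-loop in place of a poly(A) tail, tended to be lower with NSRdT. Of 60 tested (67 in the table) 4 were called lower and none higher, 6.67% against 0.121% of all genes. Their median was -0.51 against 0.00 for all genes, and -0.04 by library totals alone. In 24 of the 60, or 40%, every NSRdT library was below every N6dT library, against 5.03% of all genes, and 5 (8.33%) had the reverse. An unadjusted p under 0.05 was reached by 19 lower and 1 higher. These genes share sequence, so they are not independent and counts of single ones are uncertain.

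Hist1h1a, Hist1h1c and Hist1h1e encode linker histones, which bind DNA between nucleosomes. Hist1h1e stood at 53.6, 47.6 and 45.7 CPM with NSRdT and at 112, 125 and 96.3 with N6dT (-1.18 ± 0.18, adjusted p = 0.0182). Hist1h1c stood at 66.4, 45.5 and 55.6 against 110, 123 and 143 CPM (-1.16 ± 0.18, adjusted p = 0.0182). Hist1h1a stood at 79.2, 85.2 and 79.7 against 141, 143 and 145 CPM (-0.82 ± 0.13, adjusted p = 0.0259). In all 3 the N6dT libraries were above every NSRdT library. Hist1h2bh, a gene of the core histone H2B, stood at 22.5, 17.4 and 14.5 against 69.3, 57.9 and 97.9 CPM (-2.05 ± 0.30, adjusted p = 0.0114). Hist1h1d (-0.55, adjusted p = 0.369) and Hist1h1b (-0.01) were not called.

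Each of these 4 calls was lost without certain single libraries. That of Hist1h1a was lost without any 1 of the 6, and that of Hist1h1e without N6dT 1 or 2 or any NSRdT library. Hist1h1c was no longer called without library 2 or 3 of either group, and Hist1h2bh without N6dT 3 or NSRdT 2 or 3. Their log2 fold changes lay between -2.01 and -0.80 there.

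Summed over families, the gap was widest in the linker histones. H1 mRNAs summed to 457, 428 and 421 CPM with NSRdT and to 682, 686 and 690 with N6dT. H2B mRNAs gave 641 ± 21.4 against 876 ± 41.1 CPM (SD, n = 3), H2A 315 ± 18.3 against 450.3 ± 60.8 and H3 191 ± 23.6 against 234 ± 13.2, all without overlap. H4 mRNAs overlapped, at 167 ± 27.4 against 192 ± 23.1 CPM (exact permutation test, two-sided, p = 0.4). On this scaling, 4 of the 5 families were lower in each NSRdT library than in each N6dT library. Family sums were not taken by library totals alone, where the median of the replication-dependent histones was -0.04.

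Tnf, Il6 and Igkv1-110, genes of immune cells, were read with NSR primers and hardly at all with hexamers. Tnf, a cytokine of inflammation (chromosome 17, 35199381 to 35202007, minus strand), had 530, 240 and 335 counts in NSRdT 1, 2 and 3 and none in any N6dT library. It was at least 93.5-fold higher with NSRdT, taking 3 counts per library as the floor for a count of 0 (adjusted p = 3.65e-05). NSR without oligo(dT) gave 741, 679 and 659 counts, while N6, oligo(dT) alone and bulk gave none. Every Tnf count was assigned to 1 transcript of 1639 bases. The call was lost in a fit of the 6 libraries alone with a replicate block (adjusted p = 0.167). So the counts followed the NSR primers in 6 of 6 libraries and were absent from the other 12.

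Il6, another cytokine (chromosome 5, 30013114 to 30019981), had 141, 88 and 71 counts with NSRdT and 0, 1 and 0 with N6dT, a ratio of 232 with a 95% interval of 41.4 to 9202 for counting error only (adjusted p = 0.0108). All its NSRdT and NSR counts lay on a transcript of 651 bases, while the 1 count of N6dT and the 4, 2 and 2 of bulk lay on other transcripts. The call was lost without N6dT 1 (adjusted p = 0.0622) or N6dT 3 (adjusted p = 0.0736). Igkv1-110, an immunoglobulin light chain segment (chromosome 6, 68270485 to 68271267), had 115, 72 and 89 counts with NSRdT, 85, 94 and 61 with NSR and 0 elsewhere. It was at least 23.8-fold higher (adjusted p = 0.0158), and was not called when any 1 of the 6 libraries was left out (adjusted p from 0.0564 to 0.0732). Whether these counts come from transcripts of these genes was not tested.

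Lrrtm2, which encodes a synaptic adhesion protein, showed the reverse within oligo(dT) mixtures. It had no count in any NSRdT library and 73, 41 and 54 counts in the N6dT libraries, at least 23.4-fold lower with NSRdT (adjusted p = 0.00382). Without oligo(dT) it had 116, 107 and 115 counts with NSR and 39, 64 and 18 with N6, and bulk had 147, 169 and 166. All these counts lay on 1 transcript of 5665 bases. In a fit of the 6 libraries alone Lrrtm2 was not called (adjusted p = 0.186, and 0.999 with a replicate block).

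Genes of ES cell identity gave no call, where 0.121% of all tested genes were called. Pou5f1, which encodes Oct4, stood at 143, 152 and 138 CPM with NSRdT and at 144, 146 and 134 with N6dT (0.03 ± 0.13). Of 7 ES cell markers (Pou5f1, Nanog, Sox2, Sall4, Dppa5a, Zfp42 and Esrrb) all were present in all 6 libraries at 126 to 435 CPM, and their log2 fold changes lay between -0.06 and 0.20. Primitive endoderm markers summed to 903 to 963 CPM with NSRdT and to 873 to 1063 with N6dT, and fibroblast markers to 727 to 864 against 759 to 868, overlapping in both. No member of the 2-cell-like list passed the filter on low counts.

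Calls were also absent from most other gene groups. As only 0.121% of all tested genes were called, the absence of calls from lists of this size says little about them. In 20 of 24 gene lists no member was called, among them 82 cytoplasmic ribosomal protein genes (median -0.04), 76 nuclear genes of oxidative phosphorylation (-0.06), 47 translation factors (0.06), 41 pluripotency genes (0.03), 38 genes of DNA methylation and chromatin (-0.01), 37 cell cycle genes (0.04) and 20 glycolysis genes (-0.03). Over the 557 tested genes of those 20 lists 16 had an unadjusted p under 0.05 (2.87% against 4.41% of all genes) and DESeq2 called none. In the 15 lists with 10 or more tested members the median lay between -0.20 and 0.08. Summed over a list, translation factors stood at 11334 to 11573 CPM with NSRdT and 11226 to 11298 with N6dT, without overlap. Mitochondrial mRNAs stood at 23270 to 23798 against 24118 to 24970 and mitochondrial tRNAs at 95.6 to 98.5 against 103 to 105, also without overlap. In all other lists of the 20 the sums overlapped. Among single genes, 10.0% of all tested stood apart in either direction. As a share of counts the mitochondrial mRNAs were higher with NSRdT, as given above, so their direction depends on the scaling. Of the oxidative phosphorylation genes 12 (15.8%) were lower in every NSRdT library than in every N6dT library, against 5.03% of all genes. Malat1, a nuclear RNA that ends without poly(A), stood at 2948, 3041 and 3021 CPM against 3404, 3129 and 3195 (-0.11), and Actb, Gapdh and Eef1a1 stood at -0.04, 0.08 and -0.02. By library totals alone Malat1 stood at 0.36 and Eef1a1 at 0.44, so neither direction holds across scalings.

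The precision bounds what could be seen. Among 2993 genes whose mean log2 CPM reached 5, 2660 (88.9%) lay within 0.5 of 0 on the log2 scale and the median SE was 0.26. Cdk6, a cell cycle kinase, stood at -2.58 without being called (adjusted p = 0.969), so a large value alone did not pass. In simulated counts 30% of genes changed 2-fold were called, so a missing call does not exclude such a change.

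Removing rRNA and mitochondrial genes before the fit left the other calls in place. Of 14816 genes tested 16 were called (0.108%), 6 higher (0.0405%) and 10 lower (0.0675%), and all 16 were among the 18. An unadjusted p under 0.05 was reached by 650 genes (4.39%). With the 7 rRNA-like loci removed too, 6 were higher and 5 lower of 14616. The 2 calls that went with the removal were those of the removed genes Rn18s-rs5 and mt-Rnr2.

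The same primers without oligo(dT) come from other libraries and give a second measurement of the difference. There 44 of 14932 genes were called (0.295%), 16 higher (0.107%) and 28 lower (0.188%) with NSR than with N6, and 977 (6.54%) had an unadjusted p under 0.05. Of the 18 genes called with oligo(dT), 17 had the same sign without it, and 15 were also called there in the same direction, which is 83.3% of the 18 and 34.1% of the 44. Rn7sk stood at 0.90 without oligo(dT) (adjusted p = 0.000111) against 0.81 with it, and Rn7s1 at 0.83 (adjusted p = 0.000417) against 0.60. Gm42418 stood at -1.07 against -1.40, Rn18s-rs5 at -0.75 against -1.17 and Lars2 at -0.31 against -0.66. The replication-dependent histones had a median of -0.50 without oligo(dT) and -0.51 with it. Across all genes the 2 sets of log2 fold changes had a rank correlation of 0.04, and 0.09 over the 2993 genes whose mean log2 CPM reached 5.

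**Figure D4:**
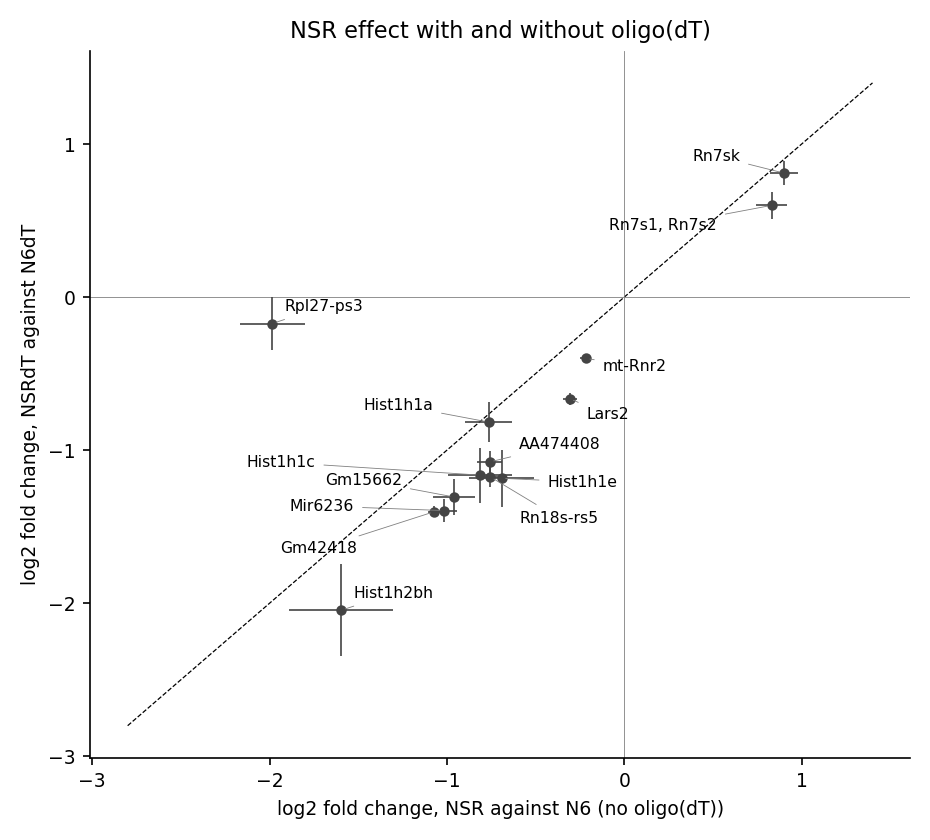
Log2 fold change of NSR over N6 without oligo(dT) (horizontal axis) against that of NSRdT over N6dT (vertical axis), with part of the called genes marked. Not all called genes are marked, and Lrrtm2 is among those left out. In the fits, 17 of the 18 genes called with oligo(dT) had the same sign without it, and Lrrtm2 was the exception.

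The difference between those effects was called for 4 genes (0.0268%), 2 higher (0.0134%) and 2 lower (0.0134%), by the interaction of NSR with oligo(dT) in edgeR's quasi-likelihood test, and 769 genes (5.15%) had an unadjusted p under 0.05. For Lrrtm2 it was -9.99 ± 1.21 on the log2 scale (adjusted p = 0.0387), a fitted value that depends on counts of 0. For Gm42418 it was -0.33 ± 0.05 (adjusted p = 0.0488). Rpl27-ps3, a ribosomal protein pseudogene, stood at 108, 111 and 121 CPM with NSRdT and at 136, 130 and 118 with N6dT, while NSR gave a mean of 12.0 and N6 47.4 CPM (interaction 1.81 ± 0.25, adjusted p = 0.0387). Gm29216 had 2564, 1997 and 2897 counts with NSRdT and 2198, 1990 and 1740 with N6dT, but 25, 0 and 80 with NSR against 1802, 2068 and 2784 with N6 (6.38 ± 0.92, adjusted p = 0.0437). It shares 449 of 462 31-base words with mt-Co1, so its counts and those of mt-Co1 are uncertain. No interaction was called when N6 1, 2 or 3, NSR 1, N6dT 1 or 3, or NSRdT 3 was left out.

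More genes were detected with NSRdT at equal depth. After each library was thinned to 5333302 counts, 18260, 18263 and 18169 genes had at least 1 count with NSRdT and 17893, 17812 and 17742 with N6dT. The means were 18231 ± 53.4 and 17816 ± 75.3 (SD, n = 3), a difference of 415 with no overlap. With rRNA-annotated and mitochondrial genes removed before thinning, which then went to 4003688 counts, the difference was 316. With the rRNA-like loci removed too, and thinning to 2810497 counts, it was -139, at 18222, 18174 and 18148 against 18485, 18239 and 18238. So the direction turned at this lower depth and outside these loci, which were chosen with their values known. Every N6dT library there detected more genes than every NSRdT library, by a narrow margin of 18238 against 18222 at the closest. Without thinning the difference was 237 and the groups overlapped (exact permutation test, two-sided, p = 0.4).

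**Figure D5:**
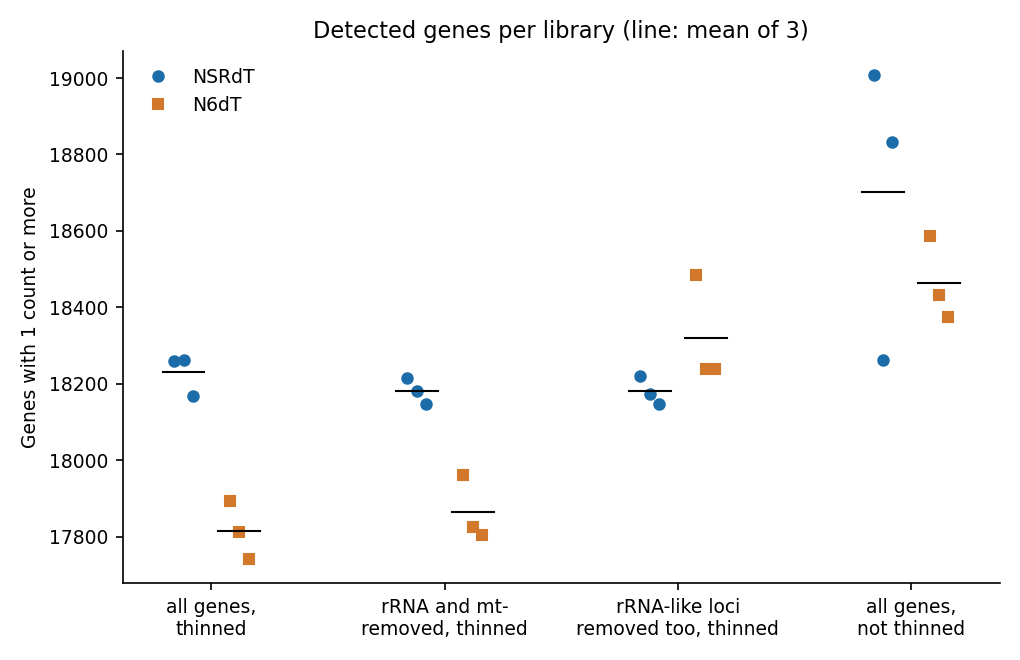
Genes with at least 1 count in each NSRdT and N6dT library (vertical axis, not from 0), with lines at group means, for all genes, without rRNA-annotated and mitochondrial genes, without the rRNA-like loci too, and without thinning. The mean of NSRdT lies 415 and 316 genes above that of N6dT in the first 2 settings and 139 below it in the third. In the last it lies 237 above that of N6dT, with overlapping groups. The thinned settings differ in depth.

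Agreement with bulk was slightly lower with NSRdT, and the spread between replicates was near equal. Over 16164 genes, the rank correlation with mean bulk values was 0.892 ± 0.000516 (SD, n = 3) with NSRdT and 0.894 ± 0.00124 with N6dT, and every NSRdT library was below every N6dT library. The bulk libraries were not alike at the primitive endoderm markers Col4a2 (646, 12771 and 420 counts in bulk 1, 2 and 3) and Lama1 (5150, 29943 and 4672). Whether that bears on the correlation was not tested. Over 12974 protein-coding genes the groups overlapped, at 0.911 with NSRdT and 0.913 with N6dT (exact permutation test, two-sided, p = 0.2). The median coefficient of variation between replicates was 0.259 with NSRdT and 0.260 with N6dT over 7328 genes at 10 CPM or more. Total estimated counts were 5333546 in NSRdT 2 and 8271882 to 8315792 in the other two, against 7786828 to 7830888 with N6dT. No molecular identifiers mark the PCR reads behind the counts, and intervals and floors cover counting error only.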

How the data were processed

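The deposited table holds estimated counts, made by the authors from their reads, for 115125 transcripts with GENCODE names in 18 libraries, per the file headers. The submitters' processing notes name bcl2fastq 2.16.0.10 and the mm10 build, while which aligner and quantifier were run, and on which strand, is not given in the sources used here. For each of 47643 gene identifiers the estimated counts of its transcripts were added up and rounded to whole numbers before testing, and 92 ERCC spike-in entries were left out of totals and tests. The rRNA share is of transcripts annotated rRNA or Mt_rRNA.

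Genes were tested with edgeR 4.0.16 (R 4.3.3; TMM, filterByExpr, quasi-likelihood F test, two-sided) in a fit of the 12 libraries with random primers, with Benjamini-Hochberg adjustment over all tested genes. DESeq2 1.42.0 was an alternative. The fit was tested on simulated counts in which 100 genes were changed 2-fold and 100 others 4-fold, all above a mean log2 CPM of 5. Of these 30% and 89% were called, and 5 of 124 calls were of unchanged genes. Library measures were compared by exact permutation tests with scipy 1.17.1, pandas 2.3.3 and numpy 2.4.6 under Python 3.11.15, and matplotlib 3.10.9 drew the figures. Thinning used 10 draws. Transcript classes with a mean share of at least 0.01% were compared. Coordinates and sequences are from GENCODE vM21, 1-based.

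The gene lists, rRNA-like loci and members were chosen with earlier results of these data known. Genes named in the text follow a rule: called genes, up to 12 in each direction by size at a mean log2 CPM of 5 or more without predicted symbols, all of a direction with 15 or fewer, all called interactions, the 2 most abundant and 2 smallest p of each list, and always the rRNA loci, mitochondrial mRNAs and 10 control genes. Not every gene it allows is printed.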

Additional observations from a re-analysis of the deposited data

Results flagged for a closer look

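The difference between the effects of NSR against N6 with and without oligo(dT) was called for 4 genes, by the interaction in edgeR's quasi-likelihood test. None was called with a replicate block or in 7 of the 12 fits that left out 1 library, and 2 were called when scaled by ERCC counts. The difference, that with oligo(dT) minus that without, was -9.99 on the log2 scale for Lrrtm2 (adjusted p = 0.0387), 1.81 for Rpl27-ps3 (adjusted p = 0.0387), -0.33 for Gm42418 (adjusted p = 0.0488) and 6.38 for Gm29216 (adjusted p = 0.0437).

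The ERCC spike-in entries, which were left out of library totals and tests and served only for an alternative scaling, took 0.516% of all counts with NSRdT, 0.378% with N6dT, 0.470% with NSR, 0.373% with N6, 0.371% with oligo(dT) alone and 1.01% in bulk. Scaled as the genes were, they stood at 4037, 4138 and 4001 CPM in the NSRdT libraries and at 4165, 4108 and 4042 CPM in the N6dT libraries, which overlap.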

How the results depend on the processing

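Genes called NSRdT against N6dT (18) numbered 118 by library totals alone, 71 without a filter on low counts, 57 with DESeq2, 10 with all 15 RT-RamDA libraries in the fit, 9 with only the 6 libraries, 8 with those 6 and a replicate block, and 12 to 15 with 1 of the 6 compared libraries left out. Without rRNA and mt- genes (16) they numbered 38, 68, 51, 8, 7 and 6 in the same order, and 10 to 13 with 1 library left out. For NSR against N6 (44) the numbers were 128, 130 and 184 by totals, without a filter and with DESeq2, 25 to 34 with 1 of the 6 NSR and N6 libraries left out, and 31 to 40 with 1 NSRdT or N6dT library left out. Interactions (4) were 10, 74 and 74 under those, 10 with 15 libraries, 2 when scaled by ERCC counts, and 0 to 5 with 1 library left out. Replicate numbers stand for the letters A, B and C in the titles. Residuals of the 18 same-letter pairs correlated between -0.0377 and 0.0289 over 6998 genes, and those of pairs with different letters between -0.0268 and 0.0295. The letters were therefore not used as pairs in the main fit, but such small values cannot show whether they mark a shared batch. With a replicate block 15 genes were called, 12 without rRNA and mt- genes, 30 for NSR against N6 and 0 interactions, and 1 histone was called lower. Histones called lower (4) numbered 1 by library totals alone, 8 with DESeq2, 0 with 15 libraries, 0 with 6 and 0 with 6 and the block, and 0 to 3 with 1 library left out.

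By library totals alone the log2 fold changes of Eef1a1 (0.44), Gm26917 (0.40), Malat1 (0.36), Rpl4 (0.46), mt-Cytb (0.40), mt-Nd1 (0.43), mt-Nd2 (0.35), mt-Nd4 (0.46), mt-Nd5 (0.45), mt-Rnr1 (0.28) and mt-Rnr2 (0.0672) turned positive. This list is not complete, as mt-Nd4l (0.18), mt-Atp8 (0.27), mt-Atp6 (0.30), Actb (0.43) and others turned too. Rn7sk, Gm42418, Rn18s-rs5, Mir6236, Gm15662, AA474408 and Lars2 were called under every alternative that tested them. The rRNA share difference (-5.31 points) was -6.55 with nuclear loci only, -7.77 with Lars2, Mir6236, AA474408 and Gm15662, -13.0 with Gm42418 and Gm26917 and -15.5 with all 7 loci. The mt- share difference (1.99) was 0.742 for mRNAs only and 0.745 of counts outside rRNA. With the rRNA-like loci removed too, differences in share turned for TEC (-0.0690), processed_pseudogene (-0.0440), processed_transcript (-0.0118), protein_coding (-0.393), pseudogene (-0.0139), ribozyme (-0.0165), transcribed_unprocessed_pseudogene (-0.00200) and unprocessed_pseudogene (0.00377), and 6 classes stood apart against 15. lincRNA turned to 0.306, and to 0.330 after removal, without Gm42418 and Gm26917. Detected genes differed by 730 at 5 counts or more and 237 not thinned, and after removal by 554, 250 and, with the rRNA-like loci removed too, -139. The rank correlation with bulk differed by -0.00504 and, after removal, -0.00481 at 10 CPM or more in bulk, with overlapping groups after removal. Replicate spread at 100 CPM or more was 0.116 for NSRdT and 0.119 for N6dT. At a mean log2 CPM of 5 or more the rank correlations of the log2 fold change were 0.0392 with length, -0.0371 with GC and -0.0458 with hexamers absent from all annotated rRNA loci. Over all protein-coding genes they were 0.0251, -0.0180 and -0.0154, and with 1 library left out 0.0154 to 0.0295, -0.0339 to -0.00632 and -0.0237 to -0.00421.

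The causes of these changes were not tested. NSRdT 2 has the fewest counts. Genes of few counts have wide errors: the median SE of 0.26 holds for a mean log2 CPM of 5 or more.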

Other observations

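Pseudogenes that copy mitochondrial genes had uneven counts across primer sets. Gm10925, Gm28437 and Gm28439 share all of their 648, 753 and 846 31-base words with mt-Atp6, mt-Co3 and mt-Nd4. Gm10925 had 0, 5 and 6 counts with NSRdT and 0 in each N6dT library, but 15825, 18217 and 19275 with NSR and 21412, 18912 and 20046 with N6. Gm28437 had 0, 2 and 2 counts with NSRdT and 10, 13 and 0 with N6dT, against 17078, 16080 and 18485 with NSR. Gm28439 had 128, 448 and 1201 counts with NSRdT and 19, 138 and 0 with N6dT, the widest spread between libraries of the 3, and 1224, 1186 and 985 with N6. None was called NSRdT against N6dT, and reads of each copy and its mitochondrial gene cannot be told apart.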
